A study of Chlorocebus aethiops with 12 samples.

Results

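FKBP5 and 8 chaperones of the steroid receptor folding cycle were followed in COS-1, an established monkey kidney cell line (Chlorocebus aethiops) with the look of fibroblasts. The 9 genes were chosen by their RefSeq accessions, and every probe that carries one of them was taken: 27 of the 41000 probes on the array, for 9 of the 24586 accessions tested. The accessions are NM_004117 (FKBP5), NM_002014 (FKBP4), NM_005348 (HSP90AA1), NM_007355 (HSP90AB1), NM_006601 (PTGES3), NM_006819 (STIP1), NM_006597 (HSPA8), NM_003932 (ST13) and NM_012111 (AHSA1). The files give the accessions without symbols, and the symbols used here came with the list of genes.

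The glucocorticoid receptor (GR) reaches its hormone-binding state on a chain of chaperones. HSPA8, the constitutive HSP70, receives the newly made receptor, ST13 (also called HIP) holds HSP70 on its client, and STIP1 (HOP) bridges HSP70 to HSP90. HSP90AA1 and HSP90AB1 are the cytosolic HSP90 proteins, PTGES3 (p23) stabilises the closed HSP90 complex, and AHSA1 stimulates the HSP90 ATPase. The immunophilins FKBP5 (FKBP51) and FKBP4 (FKBP52) then compete for the same site on HSP90: FKBP5 lowers the receptor's affinity for hormone, and FKBP4 favours its transport to the nucleus. FKBP5 is itself a well-known target gene of GR, which closes a short feedback loop on the receptor.

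RNA was measured on 12 one-colour arrays, 3 biological replicates for each of 4 groups. All cells were transfected with S211A, a GR mutant in which the phosphorylation site S211 is lost, and 2 of the groups also received MDFIC, a protein studied here for its effect on the genes that GR controls. At 48 h after transfection, in medium with charcoal-stripped serum, the cells were given vehicle or 100 nM dexamethasone (Dex), a synthetic glucocorticoid, for 6 h. The groups are S211A vehicle, S211A Dex, S211A+MDFIC vehicle and S211A+MDFIC Dex, so that every group, controls included, carries the mutant receptor. The plasmids that drive S211A and MDFIC are not given in the sources used here, and the labelled cell type was not checked against marker genes, which the files do not name.

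The probes carry human accessions and the RNA came from a monkey, and the level of one probe cannot be set against that of another. Values are log2 intensities relative to the 75th percentile of their array, and errors of group means are SDs over 3 arrays. Within a group, Pearson's r between arrays lay from 0.986 to 0.996 over all accessions tested. On slide 1, 67.8% to 71.7% of probes exceeded background clearly, and on slides 2 and 3, 76.2% to 80.6% did. All 3 arrays of S211A vehicle and 1 of S211A Dex lay on slide 1. Slide 2 held the other 2 S211A Dex arrays and 2 S211A+MDFIC vehicle arrays, and slide 3 held the last S211A+MDFIC vehicle array with the 3 S211A+MDFIC Dex arrays. Slide and group are thus partly confounded. The number of arrays limits the precision.

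On all 12 arrays, 26 of the 27 member probes were well above background. The exception was A_32_P114896, one of 4 probes for PTGES3, which was not well above background on any array and was not tested. No spot of a member was an outlier or saturated. Where an accession had several probes, the brightest stood for it, as it did for all other accessions. All 9 members were tested, and the other probes were read from a fit over all 31230 probes tested. A member or probe was called at a limma p under 0.05 after Benjamini-Hochberg adjustment over all accessions or all probes.

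The first question was what Dex did to these genes in cells with the mutant receptor alone. FKBP5 rose 1.66-fold, and none of the other 8 members was called. The deposited FKBP5 intensities, to 3 digits, at its bright probe A_23_P111206 were 1640, 1880 and 1700 on the S211A vehicle arrays and 2880, 2850 and 2770 on the S211A Dex arrays. On the scaled log2 scale the vehicle arrays read 0.92, 0.92 and 0.94 and the Dex arrays 1.71, 1.64 and 1.61. All 3 Dex arrays lay above all 3 vehicle arrays, and the gap between the groups was far wider than the spread within either. The group means were 0.93 ± 0.02 and 1.65 ± 0.05 (SD, n = 3), a log2 change of 0.73 (SE 0.05, 95% interval 0.62 to 0.83, limma adjusted p = 1.4e-05). The interval of the fold was 1.54 to 1.78.

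The same Dex treatment was then examined in cells that also received MDFIC. FKBP5 rose 1.77-fold there, and HSPA8 fell by 0.26 on the log2 scale. The deposited FKBP5 intensities at the bright probe were 1860, 1600 and 1720 on the S211A+MDFIC vehicle arrays and 3270, 3010 and 2660 on the Dex arrays. Scaled, the vehicle arrays read 0.83, 0.79 and 0.73 and the Dex arrays 1.61, 1.58 and 1.64. Again all Dex arrays were above all vehicle arrays. The means were 0.78 ± 0.05 and 1.61 ± 0.03 (SD, n = 3), a log2 change of 0.83 (SE 0.05, 95% interval 0.72 to 0.93, limma adjusted p = 5.96e-06), with a fold interval of 1.65 to 1.91.

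**Figure D1:**
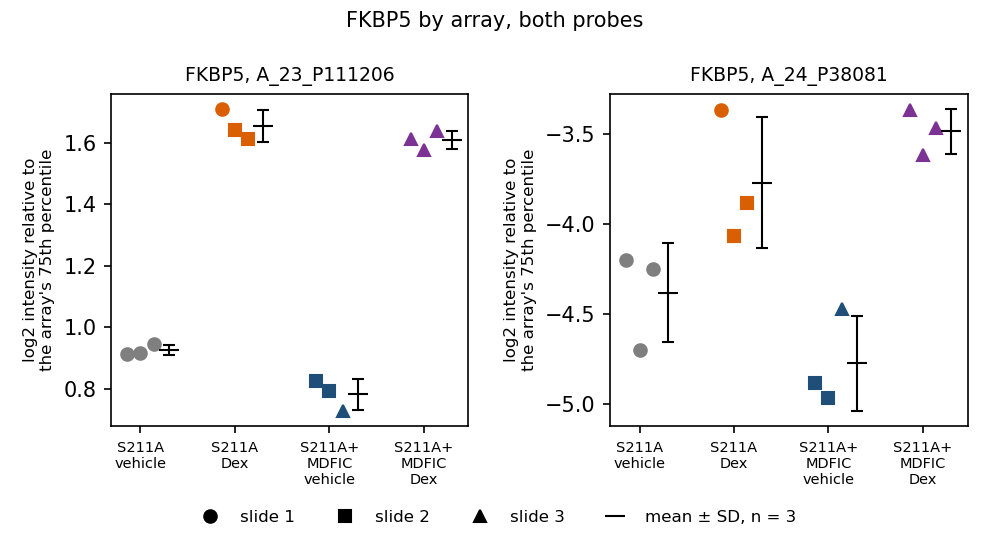
FKBP5 on each array at its bright probe A_23_P111206 (left) and its dim probe A_24_P38081 (right), as log2 intensity relative to the array's 75th percentile, for the 4 groups; marker shapes give the slide, and bars give the mean ± SD of 3 arrays. At the bright probe the Dex arrays sit between 1.58 and 1.71 and the vehicle arrays between 0.73 and 0.94; at the dim probe the groups are wider, and 1 S211A Dex array stands above the other 2.

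The second FKBP5 probe, A_24_P38081, is dim but was well above background on all arrays, with deposited intensities of 29.5 to 104. In S211A cells it read -4.20, -4.70 and -4.25 under vehicle and -3.36, -4.07 and -3.88 under Dex. In S211A+MDFIC cells it read -4.88, -4.96 and -4.47 under vehicle and -3.37, -3.62 and -3.47 under Dex. The Dex arrays lay above the vehicle arrays in both kinds of cell, as at the bright probe, but the spread within groups was up to 0.36. In the fit over probes the change was 0.61 in S211A cells (SE 0.20, limma adjusted p = 0.128) and 1.29 in S211A+MDFIC cells (SE 0.20, limma adjusted p = 0.00413), so that without slide in the model this probe was called in the latter only. With slide as a block it was called in both. The difference between these 2 responses was 0.68, with a limma adjusted p of 0.521, and it was -0.03 with slide as a block.

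Because slide 1 held all S211A vehicle arrays, FKBP5 was also compared within slides. With slide as a fixed block, the Dex change of a probe is the difference within slide 1 for S211A cells and within slide 3 for S211A+MDFIC cells. The bright probe changed by 0.78 within slide 1 (limma adjusted p = 0.000663 with the block) and by 0.88 within slide 3 (limma adjusted p = 0.000569 with the block). Both values are slightly above those without the block. The dim probe changed by 1.02 within slide 1 (limma adjusted p = 0.0408 over all probes, with the block) and by 0.99 within slide 3 (limma adjusted p = 0.05 after rounding, just inside the threshold). On slide 1 this rests on 1 Dex array and on slide 3 on 1 vehicle array. In a fit to the arrays of 1 slide alone, the bright probe did not pass (limma adjusted p = 0.0969 on slide 1 and 0.164 on slide 3).

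The rise of FKBP5 was larger than that of most accessions tested, but many had a larger one. In S211A cells 1000 of the 24586 accessions, or 4.07%, had a larger fitted rise, and 352 of these were among the 1059 called rises. In S211A+MDFIC cells 602 accessions, or 2.45%, had a larger fitted rise, 267 of them among the 1539 called rises.

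Over the 9 members, 1 was called for Dex in S211A and 2 in S211A+MDFIC cells. Over all accessions 6.5% were called in S211A cells, 4.31% as rises and 2.2% as falls. In S211A+MDFIC cells 9.99% were called, 6.26% as rises and 3.73% as falls. The median log2 change of the 9 members was -0.10 in S211A and -0.02 in S211A+MDFIC cells, against 0.02 and 0.05 over all accessions. Apart from FKBP5 the members changed little at their brightest probes: fitted values ran from -0.15 to 0.07 in S211A cells and from -0.26 to 0.08 in S211A+MDFIC cells. At these probes the outermost ends of the 95% intervals were 0.791-fold and 1.12-fold in S211A cells and 0.763-fold and 1.17-fold in S211A+MDFIC cells, below the lower end of the FKBP5 interval in each case. Other probes of these members had wider log2 intervals. They reached -0.569 (A_24_P170295 of HSP90AB1) and 0.639 (A_32_P50431 of ST13) in S211A cells. In S211A+MDFIC cells they reached -0.577 (A_32_P50431) and 0.379 (A_24_P100266 of ST13).

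**Figure D2:**
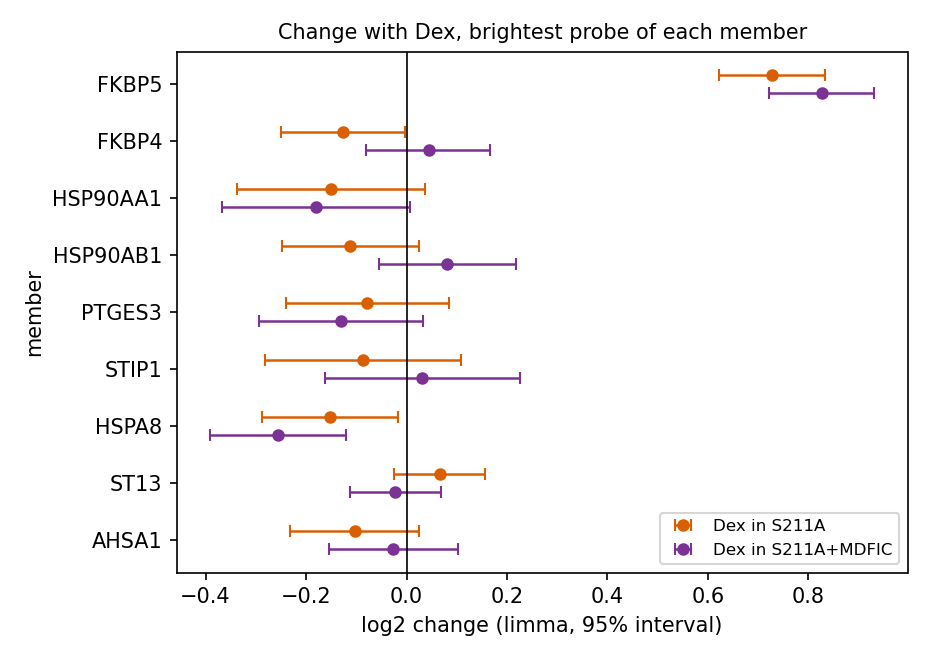
Log2 change with Dex of each member at its brightest probe without MDFIC (orange) and with it (purple); points are limma estimates and bars 95% intervals. FKBP5 stands apart at 0.73 and 0.83, HSPA8 in S211A+MDFIC cells is the other called value at -0.26, and of the values not called, those of FKBP4 and HSPA8 in S211A cells have intervals that exclude 0 before adjustment.

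FKBP4, the close relative of FKBP5 with the opposite effect on GR, was not called in either kind of cell. It read 1.93, 1.82 and 1.90 in S211A vehicle and 1.77, 1.78 and 1.72 in S211A Dex, so that these groups did not overlap but lay close together. In S211A+MDFIC cells it read 1.73, 1.77 and 1.76 under vehicle and 1.74, 1.76 and 1.90 under Dex, which overlap. The Dex changes were -0.13 (95% interval -0.249 to -0.003, limma adjusted p = 0.247) and 0.04 (-0.08 to 0.17, limma adjusted p = 0.653). Its second probe, A_32_P71788, changed by 0.01 in S211A and 0.09 in S211A+MDFIC cells.

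HSPA8 loads the receptor into the cycle. At its brightest probe, A_24_P287129, the deposited intensities were 185000, 196000 and 177000 in S211A vehicle and 158000, 166000 and 170000 in S211A Dex. They were 221000, 185000 and 200000 in S211A+MDFIC vehicle and 170000, 182000 and 142000 in S211A+MDFIC Dex. After scaling, every Dex array lay below every vehicle array of the same transfection. S211A vehicle read 7.73, 7.63 and 7.64 and S211A Dex 7.49, 7.50 and 7.55, a change of -0.15 (SE 0.06, limma adjusted p = 0.199) that was not called. S211A+MDFIC vehicle read 7.72, 7.65 and 7.59 and S211A+MDFIC Dex 7.32, 7.49 and 7.37. This change of -0.26 (SE 0.06, 95% interval -0.39 to -0.12, limma adjusted p = 0.0272), or 1.19-fold lower, was called.

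The other HSPA8 probes, A_23_P24594 and A_32_P13728, also lay lower under Dex in both kinds of cell, with changes of -0.11 and -0.19 in S211A and -0.20 and -0.075 in S211A+MDFIC, and neither was called. The HSPA8 call was not firm. With slide as a block the change was -0.19 (limma adjusted p = 0.378), and the call ended without S211A+MDFIC vehicle replicate 1 or 2 or without S211A+MDFIC Dex replicate 1 or 3, where the limma adjusted p was 0.0857 to 0.11.

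HSP90AA1, the stress-inducible cytosolic HSP90, has 2 probes, and they differed in the test. At A_23_P162866, the brighter over the 12 arrays, S211A vehicle read 5.38, 5.57 and 5.53 and S211A Dex 5.34, 5.35 and 5.34. S211A+MDFIC vehicle read 5.75, 5.73 and 5.62 and S211A+MDFIC Dex 5.65, 5.34 and 5.57, with overlap. The Dex changes were -0.15 and -0.18 (limma adjusted p = 0.364 and 0.2).

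The other HSP90AA1 probe, A_23_P162874, was printed as 10 spots on each array. The SD of these spots on the log2 scale was 0.028 to 0.068 with a median of 0.049, while the SD between arrays of a group was 0.055 to 0.183. The probe read 5.60, 5.60 and 5.29 in S211A vehicle and 5.17, 5.22 and 5.11 in S211A Dex. It read 5.30, 5.39 and 5.27 in S211A+MDFIC vehicle and 4.96, 5.03 and 4.87 in S211A+MDFIC Dex. All Dex arrays lay below the vehicle arrays, by means of 0.33 (limma adjusted p = 0.0624) and 0.37 (limma adjusted p = 0.0309), so that it was called in S211A+MDFIC cells. With slide as a block these changes were -0.32 and -0.31 and neither passed. The mean of both probes gave HSP90AA1 changes of -0.24 (limma adjusted p = 0.0439) and -0.27 (limma adjusted p = 0.0189), which pass.

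**Figure D3:**
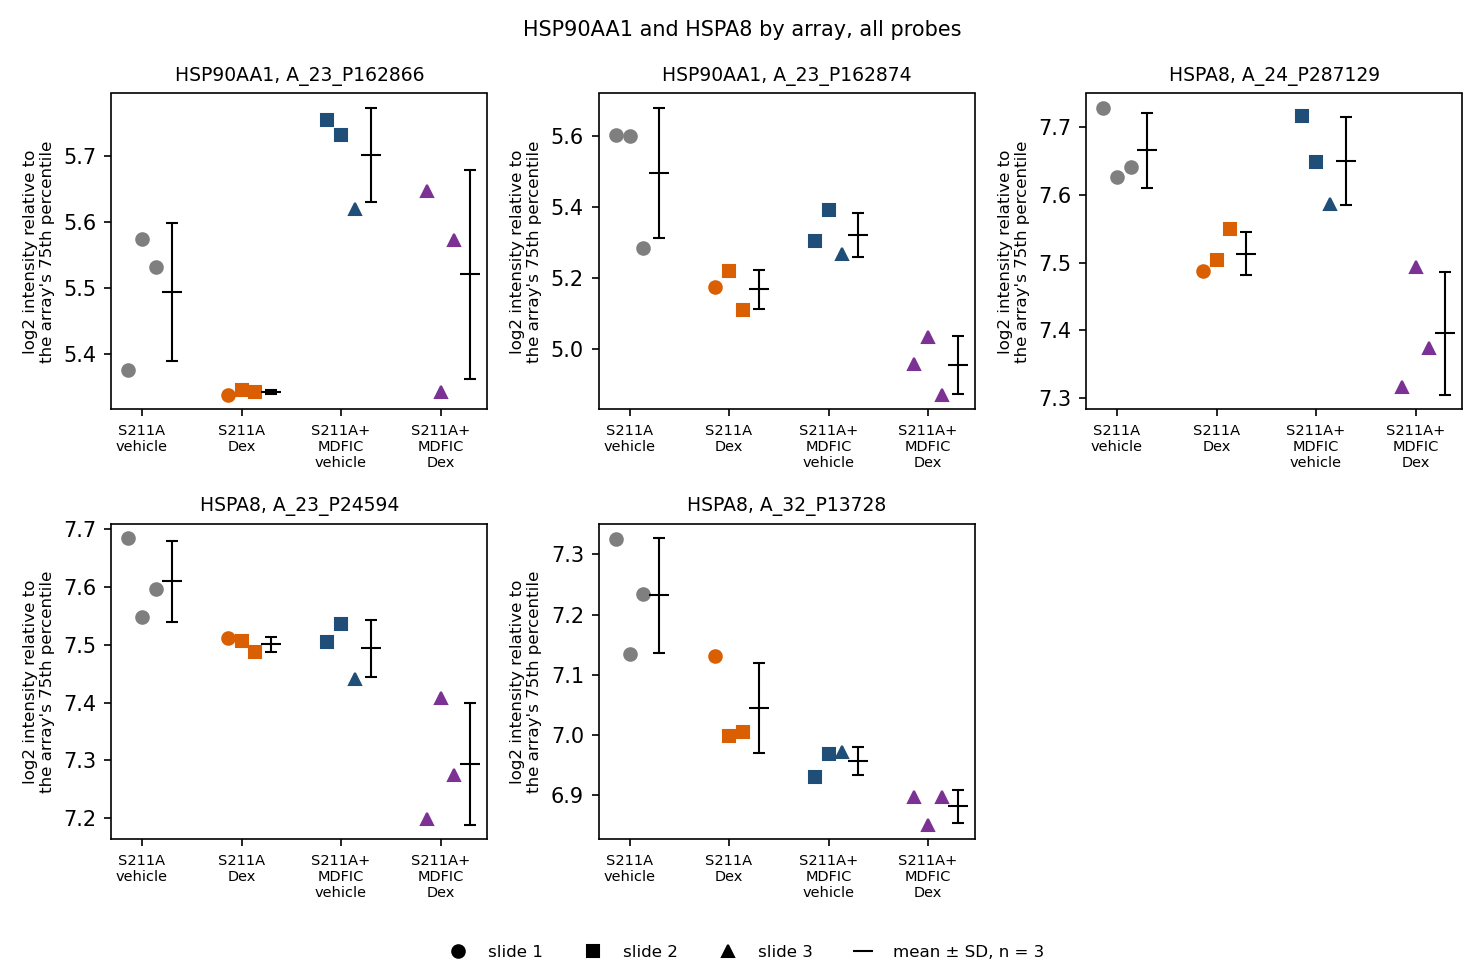
HSP90AA1 (2 probes) and HSPA8 (3 probes) on each array, as log2 intensity relative to the array's 75th percentile, for the 4 groups; marker shapes give the slide and bars the mean ± SD of 3 arrays. At all 5 probes the mean under Dex is below that under vehicle of the same transfection; the groups overlap at A_23_P162866 in S211A+MDFIC cells.

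HSP90AB1, the constitutive cytosolic HSP90, was not called. Its brightest probe, A_23_P145089, changed by -0.11 in S211A cells and by 0.08 in S211A+MDFIC cells (limma adjusted p = 0.357 and 0.426), within a range of 5.34 to 5.62 over the 12 arrays. Its probes did not move together: A_24_P823684 changed by 0.01 in each, and A_24_P170295 by -0.36 (limma adjusted p = 0.0506) and -0.10. At A_24_P170295 the S211A vehicle arrays read 1.94, 1.80 and 1.62, above the other 9 arrays, which lay between 1.26 and 1.53.

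Among the co-chaperones, PTGES3 lay lower under Dex at all 3 probes tested, in both kinds of cell, but none was called. The brightest, A_32_P30813, had changes of -0.08 and -0.13, and the range over the 3 probes was -0.26 to -0.08 in S211A and -0.20 to -0.12 in S211A+MDFIC cells. STIP1 changed by -0.09 and 0.03 at its brightest probe and by -0.125 and 0.04 at its other probe. AHSA1, with a single probe, changed by -0.10 and -0.03. Its S211A vehicle arrays, at 3.64, 3.70 and 3.64, lay above the 9 other arrays, which read 3.45 to 3.62. ST13 changed by 0.07 and -0.02 at its brightest probe, and its 8 probes ran from -0.20 to 0.20 in S211A cells and from -0.24 to 0.03 in S211A+MDFIC cells, with 4 higher and 4 lower in the former and 1 higher and 7 lower in the latter.

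**Figure D4:**
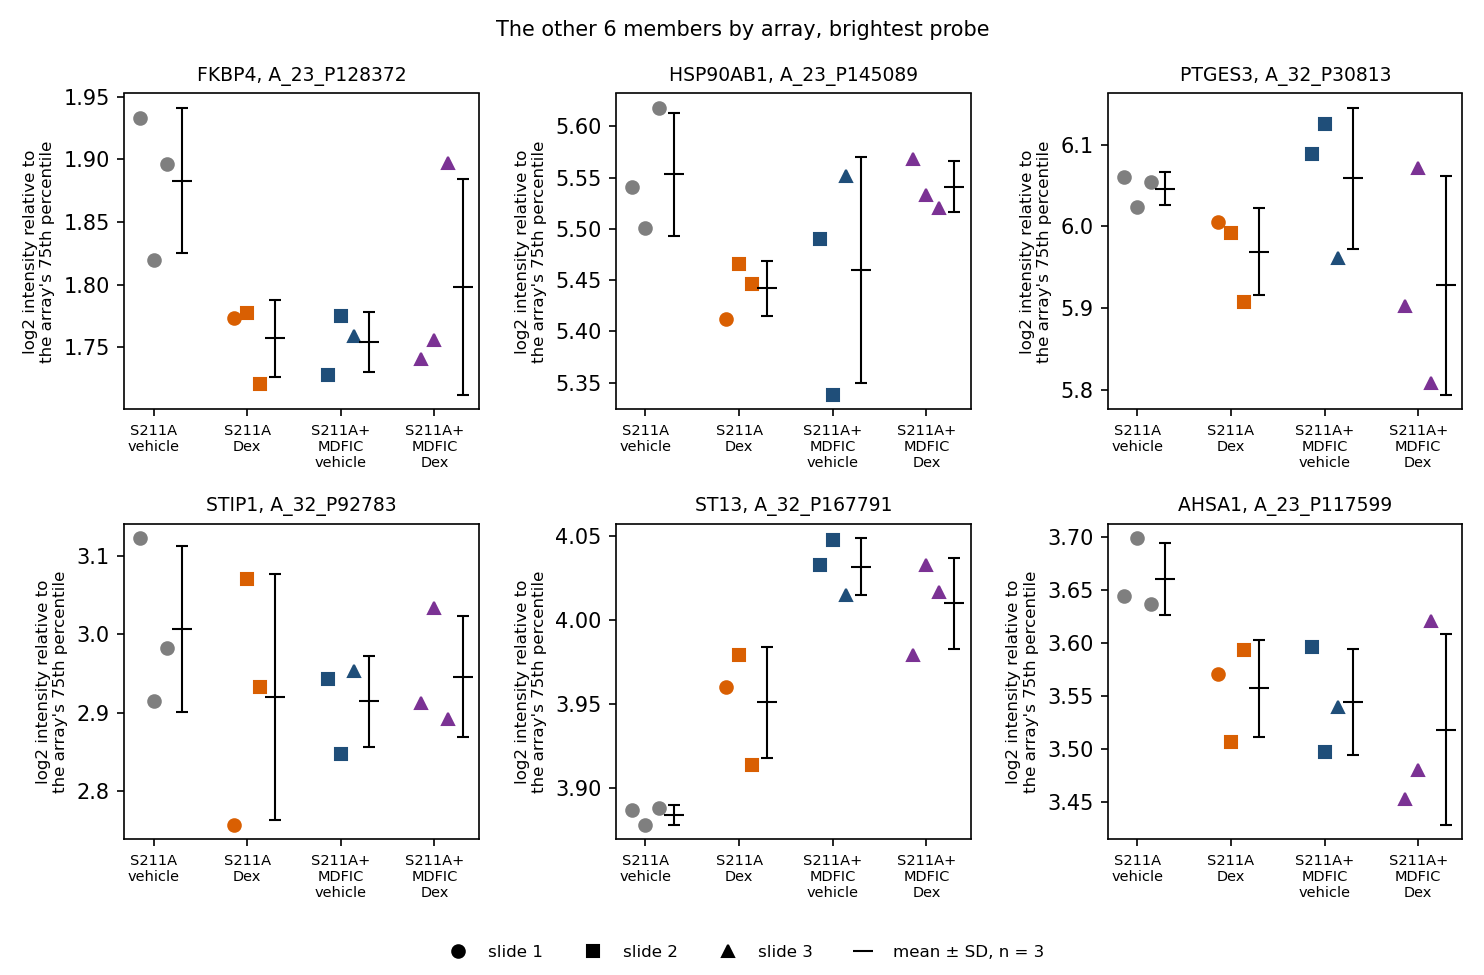
The other 6 members on each array at their brightest probe, as log2 intensity relative to the array's 75th percentile, for the 4 groups; marker shapes give the slide and bars the mean ± SD of 3 arrays. The means of the 4 groups differ by 0.09 (STIP1) to 0.15 (ST13), and each vertical axis has its own range.

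At the level of single probes, 1 of the 26 member probes was called for Dex in S211A and 4 in S211A+MDFIC cells, against 6.18% and 9.55% of all probes. The 4 were both FKBP5 probes, A_23_P162874 of HSP90AA1 and A_24_P287129 of HSPA8. Of the 24 probes of the 8 other members, 18 lay lower under Dex in S211A and 17 in S211A+MDFIC cells, with medians of -0.12 and -0.08. ST13 alone gave 8 of the 24 probes, of which 4 lay lower in S211A and 7 in S211A+MDFIC cells. Probes of 1 gene share their RNA and are not independent. The share of all probes that lay lower was not counted. The groups did not overlap for 8 of the 9 members in S211A and 2 in S211A+MDFIC cells, against 25.9% and 31.6% of all accessions. Only in S211A cells was this above the share of all accessions. There, all vehicle arrays lay on slide 1 and 2 Dex arrays on slide 2. The 8 in S211A cells were FKBP5 and ST13, which were higher, and 6 that were lower, with STIP1 the only member that overlapped. With slide as a block 1 member, FKBP5, passed in each kind of cell, against 2.69% and 2.43% of all accessions.

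Whether MDFIC alone changed these genes was asked under vehicle and under Dex. No member and no member probe was called in either comparison in limma, and 4 members under vehicle and 0 under Dex had an unadjusted p under 0.05. The same held for 4047 of the 24586 accessions under vehicle and 3326 under Dex. Of all accessions 0.948% were called under vehicle and 0.427% under Dex, and of all probes 0.752% and 0.288%. Under vehicle the 4 members were FKBP5, FKBP4, HSP90AA1 and ST13. FKBP5 read 0.92 to 0.94 in S211A and 0.73 to 0.83 in S211A+MDFIC, without overlap, a change of -0.14 (95% interval -0.25 to -0.04, limma adjusted p = 0.177) that was -0.03 with slide as a block. FKBP4 changed by -0.13 (limma adjusted p = 0.283), HSP90AA1 by 0.21 (limma adjusted p = 0.255) and ST13 by 0.15 (limma adjusted p = 0.122).

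Of FKBP5, FKBP4, HSP90AA1 and ST13, the last had the narrowest spread. The brightest ST13 probe read 3.89, 3.88 and 3.89 in S211A vehicle and 4.03, 4.05 and 4.01 in S211A+MDFIC vehicle. The 2 probes of HSP90AA1 went in opposite directions, with 0.21 at A_23_P162866 and -0.175 at A_23_P162874. Under vehicle 5 members had groups that did not overlap and under Dex 1 (HSP90AB1, at 0.10), against 28.8% and 15% of all accessions. No slide holds both groups of either comparison, so that slide and MDFIC are compared only through the block, and with it no member passed. Under Dex the FKBP5 change was -0.04 (95% interval -0.15 to 0.06), and the Dex arrays of S211A and S211A+MDFIC overlapped. Over the 8 other members, at their brightest probes, the outermost interval ends under Dex were 0.839-fold and 1.29-fold. Over all 24 tested probes of these members the log2 changes under Dex ran from -0.21 to 0.33. The 2 probes of HSP90AA1 again differed in direction, with 0.18 at A_23_P162866 and -0.21 at A_23_P162874.

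**Figure D5:**
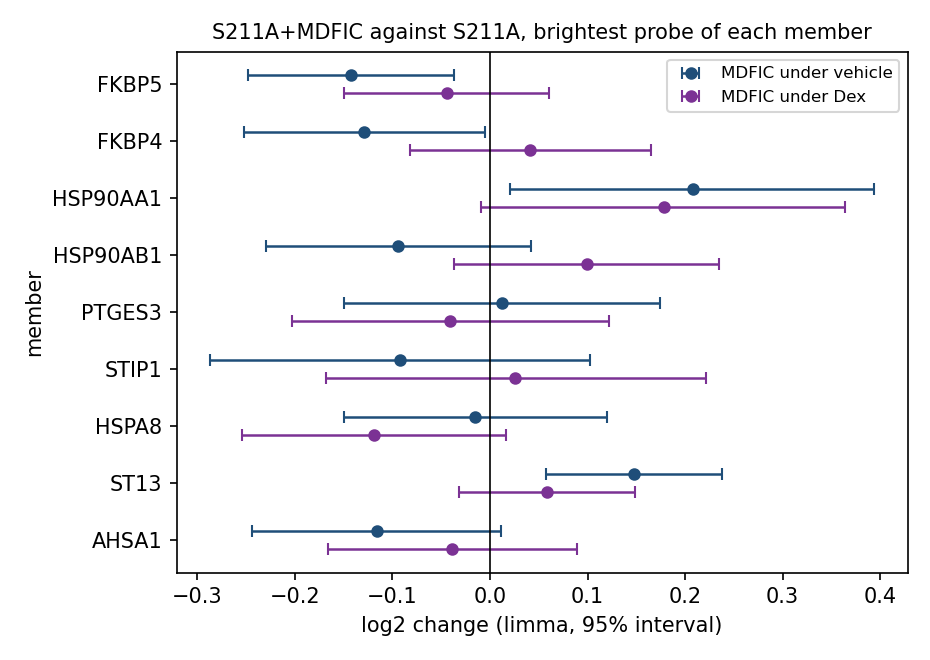
Log2 difference between S211A+MDFIC and S211A cells of each member at its brightest probe under vehicle (blue) and under Dex (purple); points are limma estimates and bars 95% intervals. No value was called; under vehicle the intervals of FKBP5, FKBP4, HSP90AA1 and ST13 exclude 0 before adjustment.

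The last comparison asked whether MDFIC altered the response to Dex. No member was called in limma, and 1, HSP90AB1, had an unadjusted p under 0.05, as did 2422 of the 24586 accessions. Of all accessions 0.268% and of all probes 0.186% were called. The FKBP5 response was larger with MDFIC by 0.10 on the log2 scale (SE 0.07, 95% interval -0.05 to 0.25, limma adjusted p = 0.637). As a ratio of folds this is 1.07, with an interval of 0.965 to 1.19, so that these arrays do not resolve a difference of that size. HSP90AB1 showed 0.19 (95% interval 0.00 to 0.38, limma adjusted p = 0.505), from a fall of 0.11 that was not called in S211A cells to 0.08 with MDFIC. For the other members the differences lay between -0.10 (HSPA8) and 0.17 (FKBP4).

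At the brightest probes, the order of the 4 groups was clear for FKBP5 only in part. S211A Dex and S211A+MDFIC Dex were highest and overlapped, S211A vehicle followed, separate from both, and S211A+MDFIC vehicle was lowest, separate from S211A vehicle. The vehicle groups overlapped at the dim FKBP5 probe, and at the bright probe their difference was -0.03 with slide as a block. PTGES3 and HSPA8 had both vehicle means above both Dex means, with overlap inside each pair but not between S211A Dex and the vehicle group next above it. In PTGES3, however, S211A+MDFIC vehicle reached down to 5.96 and overlapped both Dex groups. These reached up to 6.01 in S211A Dex and 6.07 in S211A+MDFIC Dex. For FKBP4, HSP90AB1 and STIP1 every neighbour in the order overlapped. In ST13 the lowest group, S211A vehicle, was separate from the next, and so was the highest in AHSA1, S211A vehicle. In HSP90AA1 the lowest, S211A Dex, was separate from the next, S211A vehicle. There, however, S211A+MDFIC Dex reached down to 5.344 and overlapped S211A Dex, which read 5.339 to 5.346.

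FKBP5 was finally set beside all other accessions by Pearson correlation over the 12 arrays, as a description. Among the 18663 other accessions whose brightest probe was well above background on all 12 arrays with no value missing, leaving out identifiers that only repeat a probe's name, the most alike were NM_005952 (r = 0.997) and NM_003881 (r = 0.996), and the least was NM_003670 (r = -0.994). NM_005952 rose by 1.24 with Dex in S211A cells and by 1.42 in S211A+MDFIC cells, NM_003881 by 0.88 and 0.95, and NM_003670 changed by -0.995 and -1.045. Arrays of a group had the same kind of transfection and the same treatment, and FKBP5 varied mainly between the Dex and vehicle groups. An r with FKBP5 thus largely follows the Dex change of the other accession. Of the chaperones, ST13 had an r of 0.07 with FKBP5 and the other 7 had negative values, from -0.08 for HSP90AB1 to -0.81 for HSPA8. Counted from the highest r, ST13 ranked 9420 and HSP90AB1 11250 of the 18663.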

How the data were processed

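Cy3-labelled cRNA made from total RNA was read on Agilent arrays in 1 colour, as the file headers and the labels' protocols state. The deposited values are linear intensity readings made by the authors with Feature Extraction, with background subtraction and detrending within the array, per the file headers, which name version 12.0.0.7; the submitters' processing notes name version 12. All 540180 intensity values of the deposited table of the whole series equalled those of the scanner files, so that it is not scaled between arrays.

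Here the log2 signal minus the 75th percentile of each array was used, 945 outlier spots were left out and spots of a probe averaged. A probe was tested if well above background on all 3 arrays of a group, with at least 2 values per group: 31230 of 41000 probes and, by the brightest probe, 24586 accessions. limma 3.58.1 in R 4.3.3 fitted 4 group means to all 12 arrays, two-sided, with Benjamini-Hochberg adjustment across all genes in each of 5 comparisons. The fit was checked on simulated data with independent noise and no slide effect, so that the check does not bear on the confounding of slide and group. Alternatives covered background correction, scaling, dim probes, several probes, outlier spots, slide, replicate number, samples fitted, moderation and each array left out. The members and lists were chosen with earlier results of these data known. All members are named, with the accessions most and least like FKBP5: of the 3 most alike that the rule asks for, 2 are printed, since the files pair no names with them. Other chaperone genes and marker genes by symbol, and sequences, were not analysed here.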

Additional observations from a re-analysis of the deposited data

How the results depend on the processing

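FKBP5 passed in limma in 26 of 27 alternative settings for Dex in S211A cells (log2 0.67 to 0.78, adjusted p 5.51e-07 to 0.0969) and in 26 of 27 in S211A+MDFIC cells (0.75 to 1.06, 1.46e-07 to 0.164). It missed the threshold within a single slide, at 0.78 within slide 1 and 0.88 within slide 3, where 1 array stands for a group and 0 members passed. The difference between its Dex responses was positive in all 25 settings (0.07 to 0.39) and passed in 0. The number of members called for Dex in S211A+MDFIC cells fell from 2 to 1 with normexp, without scaling, with slide as a fixed block, in the compared groups alone and with the replicate block, and was 1 to 2 with single arrays left out. HSPA8 was the member lost each time, and it passed in 16 of 27 settings (-0.33 to -0.18, adjusted p 0.00678 to 0.82). It was also lost with the mean of the probes (adjusted p = 0.0601), where HSP90AA1 passed in its place, and in S211A cells that setting gave 2 members, FKBP5 and HSP90AA1. With the replicate block HSPA8 stood at -0.26 (adjusted p = 0.0567). The labels do not say whether samples with the same number share more than that number. Deviations of such samples correlated with a median r of 0.039 (lowest -0.259), against -0.015 for other pairs. Of the arrays, 4 of 12 correlated best with their own number. The replicate block moved the features called for MDFIC under vehicle from 233 to 124. Of the other members' values, 42 of 1048 changed sign without passing in either fit, and 0 changed sign after being called. The HSPA8 call also ended without S211A+MDFIC vehicle replicate 1 or 2 and S211A+MDFIC Dex replicate 1 or 3. Of all features, settings that leave out no single array or slide called 506 to 1929 for Dex in S211A cells, 518 to 3182 for Dex in S211A+MDFIC cells, 72 to 1456 for MDFIC under vehicle, 9 to 256 for MDFIC under Dex and 0 to 187 for the difference between the responses. With single arrays left out the ranges were 913 to 1812, 1176 to 4695, 67 to 398, 36 to 723 and 0 to 264. The main counts were 1599, 2457, 233, 105 and 66. The cause of these differences was not tested. Dim probes, such as A_24_P38081 of FKBP5, limit what can be read from a second probe.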

Other observations

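A_24_P100266, a probe of ST13, read -2.35 on S211A Dex replicate 1 and -1.45 to -1.72 on the other 11 arrays. With slide as a block, this array alone carries the Dex change in S211A cells, and the probe then passed at -0.64 (limma adjusted p = 0.0197), against -0.20 (limma adjusted p = 0.549) without the block. The dim FKBP5 probe was higher on this array than on S211A Dex replicates 2 and 3, at -3.36 against -4.07 and -3.88, and so was the dimmest ST13 probe, A_32_P50431, at -4.50 against -5.05 and -4.95. A role of this array in these values was not tested.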
